A study of Homo sapiens with 12 samples.

Results

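The plasminogen activator system turns the inactive plasma protein plasminogen into plasmin, a broad protease that dissolves fibrin and cuts proteins of the extracellular matrix. Urokinase (PLAU) and tissue plasminogen activator (PLAT) make the cut, PLAUR is the receptor that holds urokinase on the cell surface, SERPINE2 and SERPINB2 are serpins that inhibit the activators, and annexin A2 (ANXA2) with its partner S100A10 binds plasminogen and PLAT at the membrane. In ovarian cancer the system is known for its part in invasion through the peritoneal lining. The RNA levels of 7 genes were followed, out of 18852 genes with a probe, taken as every probe that the array's gene annotation gives to them. There were 11 such probes for 6 of the genes, out of 48803 on the array, and the annotation used here names no probe for SERPINB2, so its RNA level was not analysed. All 11 probes lay above background on all 12 arrays, and all 11 were among the 17369 probes tested.

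Cells of 1 human ovarian cancer line, named SKOV3ip in the sample titles and SKOV3 in the source labels, were compared in 3 groups of 4 Illumina bead arrays: untransfected cells without siRNA, cells transfected with a scrambled control siRNA, and cells transfected with an siRNA against EZH2, the histone H3 methyltransferase of the Polycomb repressive complex. Control siRNA and untransfected cells differ by transfection and the scrambled siRNA, and the siRNA groups differ in the siRNA used, so that effects of either siRNA on other mRNAs are part of that comparison. The sources used here give neither the siRNA dose nor the time after transfection, nor whether the 4 arrays of a group came from separate cultures, so the p-values cover the spread among arrays and this may be technical. Levels are log2 of the background-corrected, quantile-normalised probe signal, so a difference of 1 is a doubling. A level says nothing of protein amount or protease activity, and fewer cells of a kind and less RNA per cell cannot be told apart.

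EZH2 itself fell in the cells given its siRNA. Its brightest probe read 7.47, 7.67, 7.73 and 7.36 on the control siRNA arrays and 6.51, 6.80, 6.95 and 6.45 on the EZH2 siRNA arrays (log2 fold change −0.88, limma adjusted p = 0.00133), and 7.95, 7.77, 7.86 and 8.36 in untransfected cells. Of its other probes, ILMN_2364529 fell by 0.67 between the siRNAs (adjusted p = 0.0175), and ILMN_1652913 had a log2 fold change of −0.53 and missed the threshold (adjusted p = 0.0592, called in 4 of 26 alternative settings). ILMN_2364529 was also lower with control siRNA than in untransfected cells (−0.62, adjusted p = 0.0192), where the brightest probe had −0.43 and missed the threshold (adjusted p = 0.0878). All of these EZH2 probes were dim, and the brightest had a raw signal of 64 to 398 intensity units. With EZH2 siRNA, ILMN_2364529 was above background on 3 of 4 arrays and ILMN_1652913 on 2 of 4. The added background offset shrinks the fold changes of such probes, so these values do not give the full extent of the fall. Arrays differed in brightness: the mean raw signal was 157 to 410 without transfection, 291 to 386 with control siRNA and 186 to 284 with EZH2 siRNA. Every EZH2 siRNA array was thus dimmer than every control siRNA array. Effects of array brightness and of the siRNA cannot be fully told apart in that comparison. Markers fitted an epithelial line without E-cadherin: 7 of 10 epithelial and ovarian cancer markers (KRT8, KRT18, KRT19, EPCAM, ERBB2, PAX8 and MSLN) were above background on all 12 arrays and CDH1 on none. WT1 and MUC16 were above background on 9 and 6 arrays. Of the markers of other cells, 0 of 8 endothelial, 0 of 8 fibroblast and 1 of 7 leukocyte genes were above background on all arrays. Some were above it on most arrays: the endothelial genes TIE1 and PECAM1 on 11 and 9, and the fibroblast gene PDGFRA on 11. The fibroblast gene COL3A1 was above it on 6. TIE1 had mean log2 levels of 7.12 without transfection, 6.60 with control siRNA and 6.60 with EZH2 siRNA. In the leukocyte list PTPRC, CD14, CD3E, ITGAM and CSF1R were above background on none. The summed linear level of the leukocyte list was 870 to 1128 without transfection, 1353 to 1585 with control siRNA and 1510 to 1823 with EZH2 siRNA. The other leukocyte genes with a probe had group means of 5.94 to 6.33 on the log2 scale, so the sum moved with CD68 and not with the list. CD68 was the 1 leukocyte gene above background on all arrays, with mean log2 levels of 9.27, 10.05 and 10.32 in that order. Its part in the results that follow was not tested. The epithelial sum was 10384 to 11585, 10866 to 12400 and 12363 to 14223 in the same order. The endothelial sum was 619 to 642, 567 to 598 and 587 to 598, and the fibroblast sum 516 to 599, 560 to 632 and 535 to 602.

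Both activators were higher with control siRNA than in untransfected cells. Under EZH2 siRNA both lay below their control siRNA level and above their untransfected level. The receptor PLAUR and S100A10 were higher after either siRNA than in untransfected cells and did not pass the test between the siRNAs. SERPINE2 and ANXA2 passed no test. In counts, 6 of the 11 probes, from 4 of 6 genes, rose with control siRNA against untransfected cells and 0 fell, where 6.49% of all tested probes were called (3.87% higher). With EZH2 siRNA against control siRNA, 2 of the 11 probes fell and 0 rose, where 4.22% of all tested probes were called (2.39% lower). EZH2 siRNA against untransfected cells gave 6 called probes from 4 genes, all higher, where 16.9% of all tested probes were called (8.81% higher). A probe was called at an adjusted p under 0.05 in limma. The median log2 fold change of the 11 probes was 0.41, −0.06 and 0.46 in the order just given, and that of all tested probes was 0.01, −0.02 and −0.01. The comparisons share arrays (each group's arrays enter 2 of the 3), so they are not independent of each other.

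**Figure D1:**
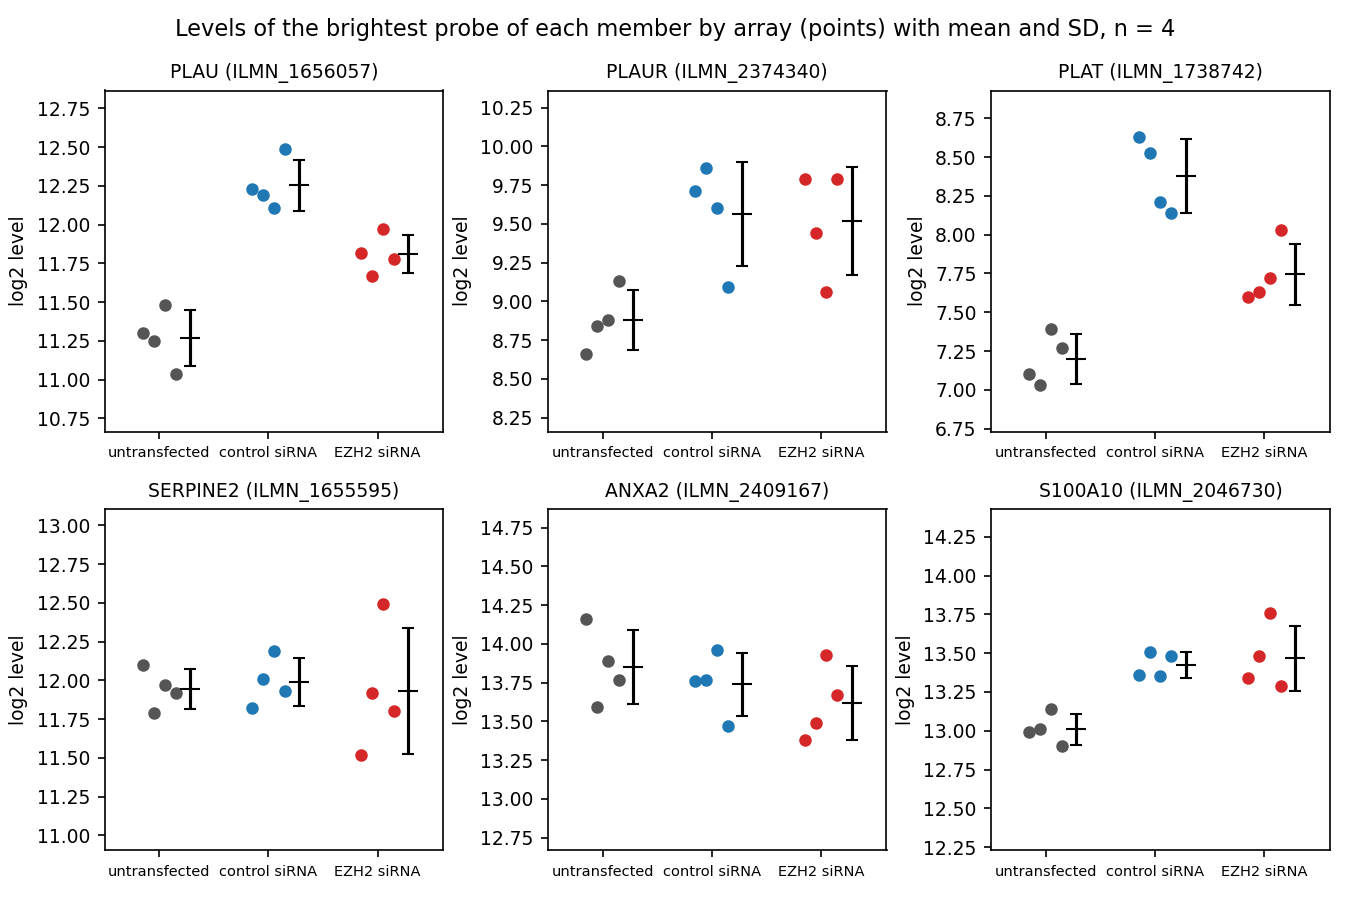
Level of the brightest probe of each of 6 genes (log2 scale, y axis) on every array of the 3 groups (points), with the group mean and SD to the right of each set (n = 4). For PLAU and PLAT the 3 groups do not overlap, with untransfected cells lowest and control siRNA highest. For SERPINE2 and ANXA2 the groups overlap throughout.

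PLAU encodes urokinase, the secreted serine protease that activates plasminogen at the cell surface when bound to its receptor. Without transfection its 1 probe (ILMN_1656057) read 11.30, 11.25, 11.48 and 11.04. With control siRNA it read 12.23, 12.19, 12.11 and 12.49. With EZH2 siRNA it read 11.82, 11.67, 11.97 and 11.78. The 3 groups did not overlap: every EZH2 siRNA array lay above every untransfected array and below every control siRNA array. Group means were 11.27 ± 0.18 (SD, n = 4) without transfection, 12.25 ± 0.16 with control siRNA and 11.81 ± 0.13 with EZH2 siRNA. Against untransfected cells, PLAU was 1.98-fold higher with control siRNA (log2 fold change 0.99, SE 0.12, limma adjusted p = 2.42e-05) and 1.46-fold higher with EZH2 siRNA (0.54, SE 0.12, adjusted p = 0.00491). Against control siRNA it was 1.36-fold lower with EZH2 siRNA (log2 fold change −0.44, 95% confidence interval −0.70 to −0.19, limma adjusted p = 0.0457). The rise with control siRNA was called in 26 of 26 alternative settings, but the fall in 9 of 26, with log2 fold changes from −0.715 to −0.35 and adjusted p from 0.0257 to 0.223. Its call was lost with array brightness as a covariate (−0.35, adjusted p = 0.163), without the 3 dimmest arrays (−0.427, adjusted p = 0.223), under a 75th percentile scaling (−0.715, adjusted p = 0.2) and in the deposited log2 table (−0.445, adjusted p = 0.0573). It was also lost on leaving out any 1 control siRNA array, untransfected array 2, or EZH2 siRNA array 1, 2 or 4 (adjusted p up to 0.159), and kept in 4 of 12 such fits. The rise with EZH2 siRNA over untransfected cells was called in 24 of 26 settings and lost under the 75th percentile scaling (0.463, adjusted p = 0.369) and without the 3 dimmest arrays (0.47, adjusted p = 0.0831).

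PLAT encodes tissue plasminogen activator, the activator best known for dissolving clots, which acts most on plasminogen bound to fibrin or to annexin A2. Its 1 probe (ILMN_1738742) read 7.10, 7.03, 7.39 and 7.27 in untransfected cells. It read 8.63, 8.53, 8.21 and 8.14 with control siRNA and 7.60, 7.63, 7.72 and 8.03 with EZH2 siRNA. As for PLAU, the 3 groups did not overlap, with the EZH2 siRNA arrays between the others. PLAT was dim, with a raw signal of 87 to 433 intensity units, so the added background offset shrinks its fold changes. Means were 7.20 ± 0.16 (SD, n = 4), 8.38 ± 0.24 and 7.75 ± 0.20 in the order untransfected, control siRNA and EZH2 siRNA. PLAT rose 2.26-fold with control siRNA against untransfected cells (log2 fold change 1.18, SE 0.14, limma adjusted p = 9.32e-06). It fell by 0.63 on the log2 scale with EZH2 siRNA against control siRNA (1.55-fold lower, 95% confidence interval −0.92 to −0.34, limma adjusted p = 0.0117). It was 1.46-fold higher with EZH2 siRNA than in untransfected cells (0.55, SE 0.14, adjusted p = 0.00984). The rise with control siRNA was called in 26 of 26 alternative settings and the fall in 23 of 26. The fall's call was lost at an adjusted p threshold of 0.01, without control siRNA array 2 (−0.576, adjusted p = 0.0587) and without EZH2 siRNA array 1 (−0.59, adjusted p = 0.0571). The rise with EZH2 siRNA over untransfected cells was lost under the 75th percentile scaling (0.429, adjusted p = 0.141) and without the 3 dimmest arrays (0.542, adjusted p = 0.0773).

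PLAUR, the lipid-anchored urokinase receptor, had 3 probes, of which the annotation matches ILMN_2374340 and ILMN_1691508 to 1 transcript and ILMN_2408543 to another. The brightest, ILMN_2374340, read 8.66, 8.84, 8.88 and 9.13 without transfection, 9.71, 9.86, 9.60 and 9.09 with control siRNA, and 9.79, 9.44, 9.06 and 9.79 with EZH2 siRNA. Control siRNA array 4 and EZH2 siRNA array 3 lay below untransfected array 4, and the other siRNA arrays above every untransfected array. ILMN_2408543 read 7.53, 7.97, 7.72 and 8.03, then 8.41, 8.51, 8.33 and 8.36, and then 8.63, 8.03, 8.10 and 8.80 in the same group order. The control siRNA arrays of that probe all lay above the untransfected ones. ILMN_1691508 read 7.45, 7.80, 7.73 and 7.53, then 8.18, 8.06, 8.28 and 8.08, and then 7.86, 8.24, 8.21 and 8.19. On that probe all 8 siRNA arrays lay above all 4 untransfected arrays.

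All 3 PLAUR probes rose with control siRNA, by 0.69, 0.59 and 0.52 on the log2 scale in the order of the previous paragraph (limma adjusted p = 0.0192, 0.0288 and 0.0117). They rose by 0.64, 0.58 and 0.50 with EZH2 siRNA against untransfected cells (adjusted p = 0.015, 0.0162 and 0.00805). Between the siRNAs the log2 fold changes were −0.05, −0.01 and −0.02 (adjusted p = 0.922, 0.981 and 0.951), with a 95% confidence interval of −0.41 to 0.32 for the brightest probe. The rise with control siRNA was called in 20, 18 and 23 of 26 settings. For the brightest probe it was lost without untransfected array 1 (adjusted p = 0.0576) or without control siRNA array 1, 2 or 3 (0.0666, 0.0725 and 0.0578). For ILMN_2408543 it was lost without untransfected array 1 or 3 or without any 1 control siRNA array (adjusted p up to 0.0918), and for ILMN_1691508 without control siRNA array 3 (0.0534). The rise with EZH2 siRNA against untransfected cells was called in 21, 20 and 25 of 26 settings. Under the 75th percentile scaling all 3 probes lost it (0.479, 0.413 and 0.346, adjusted p = 0.141, 0.16 and 0.349). Without the 3 dimmest arrays the first 2 lost it (0.461 and 0.344, adjusted p = 0.187 and 0.206). It was also lost for the brightest probe without EZH2 siRNA array 1 or 4 (0.063 and 0.0568), and for ILMN_2408543 without those or untransfected array 1 (up to 0.0687).

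The promoters of PLAUR, of ANXA2 and of both PLAU start sites are shown because they let a member that rose with either siRNA, one that passed no test and one whose level differed between the siRNAs be read side by side. Each runs from 250 bases before to 50 bases after an annotated start, 5′ to 3′ on the gene's strand (RefSeq, GRCh38.p14). Capitals mark matches to TGANTCA, the letters bound by AP-1, a dimer of FOS and JUN proteins known to act on PLAU and PLAUR.
PLAUR, chr19:43670120-43670419, minus strand: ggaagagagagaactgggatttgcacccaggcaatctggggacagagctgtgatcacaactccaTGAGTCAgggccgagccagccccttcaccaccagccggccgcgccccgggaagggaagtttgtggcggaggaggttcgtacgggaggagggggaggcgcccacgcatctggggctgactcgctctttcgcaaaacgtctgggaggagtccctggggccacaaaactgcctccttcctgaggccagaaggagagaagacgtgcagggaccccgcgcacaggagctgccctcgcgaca
ANXA2, chr15:60397937-60398236, minus strand: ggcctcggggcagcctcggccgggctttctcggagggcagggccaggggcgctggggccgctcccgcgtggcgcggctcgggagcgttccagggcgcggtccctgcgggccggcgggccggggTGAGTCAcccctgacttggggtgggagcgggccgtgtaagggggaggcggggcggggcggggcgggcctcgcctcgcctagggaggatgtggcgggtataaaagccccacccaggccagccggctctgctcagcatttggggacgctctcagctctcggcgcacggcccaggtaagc
PLAU, upstream start, chr10:73910360-73910659, plus strand: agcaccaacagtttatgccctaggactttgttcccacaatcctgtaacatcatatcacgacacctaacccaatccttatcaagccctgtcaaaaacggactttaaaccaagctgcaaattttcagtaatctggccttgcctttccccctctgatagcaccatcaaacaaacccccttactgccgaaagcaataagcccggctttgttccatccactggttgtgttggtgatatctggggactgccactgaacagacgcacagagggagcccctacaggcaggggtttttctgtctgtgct
PLAU, downstream start, chr10:73910882-73911181, plus strand: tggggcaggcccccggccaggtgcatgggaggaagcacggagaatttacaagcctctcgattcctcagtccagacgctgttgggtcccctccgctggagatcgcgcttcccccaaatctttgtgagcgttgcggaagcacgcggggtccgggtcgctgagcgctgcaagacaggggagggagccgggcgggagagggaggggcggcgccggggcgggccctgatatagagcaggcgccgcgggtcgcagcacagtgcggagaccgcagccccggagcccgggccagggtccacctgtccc

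The letters TGANTCA, which are the same on both strands, occurred in 3 of 8 promoter windows of 6 of the genes (the PLAT promoter was not searched), against 7.71% of all 35116 promoters in the table. They lay 186 bases before the PLAUR start, 127 bases before the ANXA2 start and 102 bases before the start of SERPINB2, where they read TGAATCA. Neither PLAU window held them, nor did those of SERPINE2 and S100A10. The letters TTCNNNGAA, which STAT factors bind, occurred on neither strand of the 8 windows (0), and in 7.66% of all promoters. A match is a run of letters in this window and does not show binding, and its absence says nothing of sites elsewhere.

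SERPINE2, also called protease nexin-1, is a secreted serpin that inhibits urokinase, tissue plasminogen activator, thrombin and plasmin. Its 1 probe (ILMN_1655595) read 12.10, 11.79, 11.97 and 11.92 without transfection, 11.82, 12.01, 12.19 and 11.93 with control siRNA, and 11.52, 11.92, 12.49 and 11.80 with EZH2 siRNA. The groups overlapped, and the EZH2 siRNA arrays held both the lowest and the highest value. Its log2 fold change was 0.05 with control siRNA against untransfected cells (95% confidence interval −0.28 to 0.38, limma adjusted p = 0.921). With EZH2 siRNA it was −0.06 against control siRNA (−0.39 to 0.27, adjusted p = 0.895) and −0.01 against untransfected cells (−0.34 to 0.32, adjusted p = 0.975). The first interval excludes a rise as large as that of PLAU or PLAT in the same comparison.

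ANXA2 encodes annexin A2, a calcium-dependent membrane-binding protein that carries plasminogen and PLAT on the cell surface when paired with S100A10. Its brightest probe (ILMN_2409167) read 14.16, 13.59, 13.89 and 13.77 without transfection, 13.76, 13.77, 13.96 and 13.47 with control siRNA, and 13.38, 13.49, 13.93 and 13.67 with EZH2 siRNA. The groups overlapped in every comparison. Its raw signal reached 19906, near the top of the scale, as the brightest probe of an array read 22266 to 25231. Its log2 fold changes were −0.11 with control siRNA and −0.23 with EZH2 siRNA, each against untransfected cells, and −0.12 between the siRNAs (limma adjusted p = 0.753, 0.303 and 0.731). The probe ILMN_1711899 ranged from 10.15 to 10.74 and ILMN_1755937 from 8.50 to 9.04 over the 12 arrays. Their log2 fold changes in the same order were 0.09, 0.12 and 0.03, and 0.11, −0.08 and −0.19, with adjusted p of 0.473 or more. ANXA2 has processed pseudogenes of near-identical sequence, and 3 probes annotated to ANXA2P1 and ANXA2P3 were not called in any comparison either (adjusted p of 0.196 or more). Which of these transcripts the probes read cannot be told apart.

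S100A10, also called p11, is the small S100 protein that joins annexin A2 and whose tail binds plasminogen. Its brighter probe (ILMN_2046730) read 12.99, 13.01, 13.14 and 12.90 without transfection, 13.36, 13.51, 13.35 and 13.48 with control siRNA, and 13.34, 13.48, 13.76 and 13.29 with EZH2 siRNA. All 8 siRNA arrays lay above all 4 untransfected arrays. It rose 1.33-fold with control siRNA (log2 fold change 0.41, SE 0.12, limma adjusted p = 0.041) and 1.38-fold with EZH2 siRNA (0.46, SE 0.12, adjusted p = 0.0117), each against untransfected cells. Between the siRNAs the log2 fold change was 0.05 (95% confidence interval −0.20 to 0.29, adjusted p = 0.887), which excludes a fall as large as those of PLAU and PLAT. The other probe (ILMN_1796712) read 12.51, 12.57, 12.42 and 12.26, then 12.65, 12.84, 12.93 and 12.97, and then 12.58, 12.77, 13.16 and 12.66. Its groups did not overlap with untransfected cells either, but it missed the threshold in both comparisons (0.41, adjusted p = 0.0726, and 0.35, adjusted p = 0.0752). The rise of the brighter probe with control siRNA was called in 12 of 26 settings. It was lost without untransfected array 1, 2 or 4 or without any 1 control siRNA array (adjusted p up to 0.112), and under the cyclic loess scaling (0.353, adjusted p = 0.0599). The 75th percentile scaling (0.546, adjusted p = 0.308) and each array's own background with offset 16 (0.416, 0.109) lost it too. So did leaving out the 3 dimmest arrays (0.363, 0.0824), no background correction and the deposited log2 table (each 0.415, 0.0547), and a threshold of 0.01. The rise with EZH2 siRNA was called in 24 of 26, and lost under the 75th percentile scaling (0.481, adjusted p = 0.273) and at a threshold of 0.01.

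**Figure D2:**
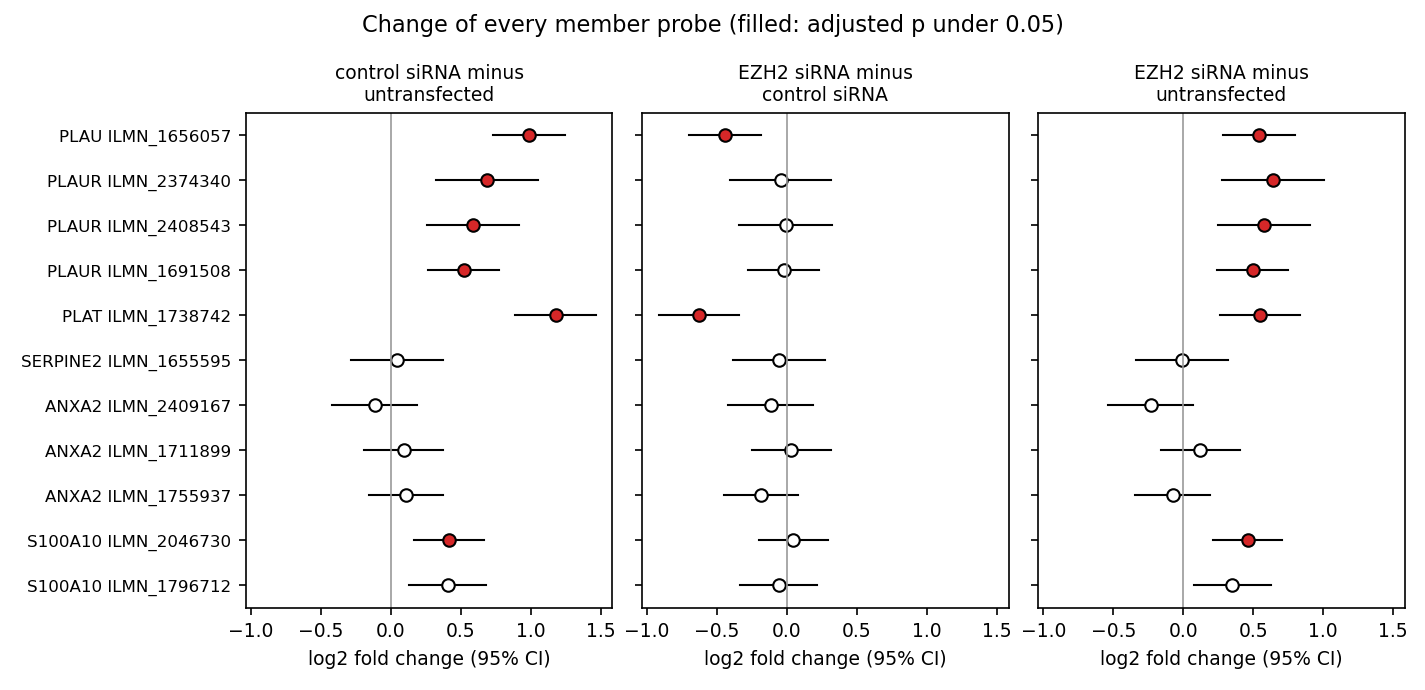
Log2 fold change of each of the 11 probes (points) with its 95% confidence interval (lines) in the 3 comparisons (x axis, log2 scale). Filled points have a limma adjusted p under 0.05. PLAU and PLAT are the 2 filled points below 0 between the siRNAs, and the probes filled against untransfected cells lie above 0 in both comparisons.

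The groups of arrays did not overlap for 6 probes with control siRNA against untransfected cells, all higher, where 7.99% of all tested probes were higher without overlap. These were PLAU, PLAT, both S100A10 probes and the PLAUR probes ILMN_2408543 and ILMN_1691508. Between the siRNAs 2 probes, PLAU and PLAT, were lower without overlap, where 5.94% of all tested probes were. In EZH2 siRNA against untransfected cells 5 of the 6 probes named first, all but PLAUR ILMN_2408543, were again higher without overlap. Of all tested probes 8.76% were, and both comparisons use the same untransfected arrays. Differences between genes were also measured within arrays, as the change of 1 gene's brightest probe minus that of another, for 15 pairs in each comparison, with 95% intervals not adjusted for their number. With control siRNA, PLAU and PLAT differed by −0.19 (−0.62 to 0.23), so the activators' rises were not told apart. Both rose more than S100A10, PLAU by 0.57 (0.36 to 0.79) and PLAT by 0.76 (0.35 to 1.18). Between the siRNAs the change of PLAU minus that of S100A10 was −0.49 (−0.70 to −0.27), and that of PLAT minus that of S100A10 was −0.68 (−1.09 to −0.26). The change of PLAUR minus that of PLAT was 0.58 (0.17 to 0.999), while PLAU minus PLAUR was −0.40 (−1.07 to 0.27), an interval that holds 0. PLAU minus SERPINE2 (−0.39, −0.83 to 0.06) and PLAU minus ANXA2 (−0.33, −0.77 to 0.11) held 0 too. PLAT minus SERPINE2 (−0.57, −1.12 to −0.03) and PLAT minus ANXA2 (−0.51, −0.93 to −0.10) did not. With control siRNA against untransfected cells PLAUR minus SERPINE2 was 0.64 (−0.16 to 1.45), which holds 0, and PLAUR minus ANXA2 was 0.80 (0.15 to 1.46). With control siRNA against untransfected cells ANXA2 minus S100A10 was −0.53 (−0.90 to −0.16) by the brightest ANXA2 probe, which is near the top of the scale. The other ANXA2 probes changed by 0.09 and 0.11 there, closer to the 0.41 of S100A10, and their differences from it were not tested. Over all 15 pairs the interval excluded 0 in 10 with control siRNA against untransfected cells, 5 between the siRNAs and 7 with EZH2 siRNA against untransfected cells.

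Among the other genes of the pathway, plasminogen itself (PLG) was not above background often enough to be tested. A list of plasminogen receptors and activating proteases, which also held the scaffold protein AHNAK, had 7 tested genes. Of these, 2 rose with control siRNA against untransfected cells, where 7.84% of all 10994 genes with a tested probe were called. They were the lysosomal cysteine proteases CTSB, which can activate pro-urokinase (log2 fold change 0.78, adjusted p = 0.000279), and CTSL (0.55, adjusted p = 0.00386). Against untransfected cells 3 rose and 2 fell with EZH2 siRNA, where 18.8% of genes were called. CTSL rose by 0.66 and CTSB by 0.61, while AHNAK, a giant scaffold protein that binds S100A10 with annexin A2, fell by 0.45 (adjusted p = 0.000414, 0.0015 and 0.017). Between the siRNAs AHNAK alone of the 7 passed, where 4.88% of genes were called, and fell by 0.46 (adjusted p = 0.0424), a call kept in 9 of 26 settings and in 5 of 12 fits with 1 array left out. The medians of the 7 were 0.18, 0.23 and 0.05 in the order of these comparisons.

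A further list held serpins and other protease inhibitors, and which of them act on plasmin or the activators was not checked. Of its 6 tested genes, 2 rose with control siRNA against untransfected cells and 0 fell, where 7.84% of all genes were called. TFPI2, a Kunitz inhibitor of plasmin and other serine proteases, rose by 1.01 on the log2 scale (adjusted p = 6.75e-06), and SERPINB8, an intracellular serpin, rose by 0.63 (adjusted p = 0.00586). Under EZH2 siRNA, again against untransfected cells, TFPI2 rose by 0.66 (adjusted p = 0.000514) and SPINT2, an inhibitor of hepatocyte growth factor activator, by 0.38 (adjusted p = 0.0194), and 0 fell, where 18.8% of all genes were called. Between the siRNAs 0 of the 6 passed the limma test, where 4.88% of all genes did. The lowest limma adjusted p there were those of TFPI2 (0.0961) and SERPINB8 (0.126). Median log2 fold changes of the list were 0.39, 0.30 and −0.06 in the order of these comparisons.

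Of 11 tested partners of the urokinase receptor and clearance receptors, 2 rose and 1 fell with control siRNA, where 7.84% of all genes were called. ITGA5, the alpha chain of the fibronectin receptor, rose by 1.04 (adjusted p = 0.000318), and ITGA3, of the laminin receptor, by 0.52 (adjusted p = 0.021). CAV1, the coat protein of caveolae, fell by 0.68 (adjusted p = 0.000849). Under EZH2 siRNA, against untransfected cells, ITGA5 was the 1 gene that rose, by 0.99 (adjusted p = 0.00031), and 3 fell, where 18.8% of all genes were called. Of these, ITGAV, of the vitronectin receptors, fell by 0.74 and EGFR, the epidermal growth factor receptor, by 0.61 (adjusted p = 0.0138 and 0.00128). Between the siRNAs EGFR fell by 0.48 (adjusted p = 0.0226) and the other 10 did not pass, where 4.88% of all genes were called; this call was kept in 16 of 26 settings. The list's medians were 0.04, −0.02 and −0.27, in the order used above.

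Annexins and S100 proteins other than ANXA2 and S100A10 numbered 15 tested genes. With control siRNA against untransfected cells 1 rose, S100A11, a calcium-binding partner of annexin A1, by 0.60 (adjusted p = 0.0327). With EZH2 siRNA against untransfected cells 5 rose and 0 fell, with S100A3 at 0.74, S100A16 at 0.61 and S100A13 at 0.60 (adjusted p = 0.00118, 0.0059 and 0.0143). Between the siRNAs 2 rose: S100A2 by 0.58 (adjusted p = 0.0101) and S100A6 by 0.39 (adjusted p = 0.0369). Their medians were −0.03, −0.03 and 0.13. Of 15 tested matrix proteases and inhibitors, the stromelysin MMP3, which plasmin can activate, rose by 0.72 with control siRNA (adjusted p = 0.00156) and fell by 0.59 between the siRNAs (adjusted p = 0.0128). MMP3 was dim, above background on 3 of the 4 untransfected arrays. TIMP1, an inhibitor of matrix metalloproteases, rose by 0.52 with control siRNA and by 0.37 with EZH2 siRNA, each against untransfected cells (adjusted p = 0.0135 and 0.0424). ADAM10 and ADAM9, membrane sheddases, fell by 0.50 and 0.33 with EZH2 siRNA against untransfected cells (adjusted p = 0.00606 and 0.0489). In all, 2 of these 15 rose and 0 fell with control siRNA, 0 rose and 1 fell between the siRNAs, and 1 rose and 2 fell with EZH2 siRNA against untransfected cells, with medians of 0.09, −0.07 and −0.00372. The shares of all genes called, 7.84%, 4.88% and 18.8% in that order, apply to both lists. The annexin and S100 list's 1 of 15 with control siRNA lies near its share. So do the proteases' 1 of 15 between the siRNAs and 3 of 15 in the last comparison.

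Several of these calls were lost when 1 array was left out, which also leaves the test fewer arrays. Over all tested probes, 733 calls between the siRNAs became 281 without EZH2 siRNA array 1. The loss was not particular to that array. Calls numbered 296, 315 and 377 without control siRNA array 2, 3 or 4, and 374 without EZH2 siRNA array 4. They numbered 1289 without EZH2 siRNA array 3, and 676 to 878 in the remaining fits with 1 array left out. Without EZH2 siRNA array 1 the limma calls of S100A2 (adjusted p = 0.0516) and MMP3 (0.0548) between the siRNAs were lost, as were those of AHNAK (0.0817), ITGAV (0.0519), SPINT2 (0.0545) and S100A13 (0.052) with EZH2 siRNA against untransfected cells. MMP3 between the siRNAs was also lost without control siRNA array 2 (0.0685), ITGAV without untransfected array 1 (0.0527), and TIMP1 with control siRNA without control siRNA array 4 (0.0558). Of the 12 fits that leave out 1 array, EGFR between the siRNAs was called in 7 and S100A6 in 5. With control siRNA, ITGA3 and S100A11 were each called in 8 of 12. TIMP1 was called in 4 and ADAM9 in 1 for EZH2 siRNA against untransfected cells.

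**Figure D3:**
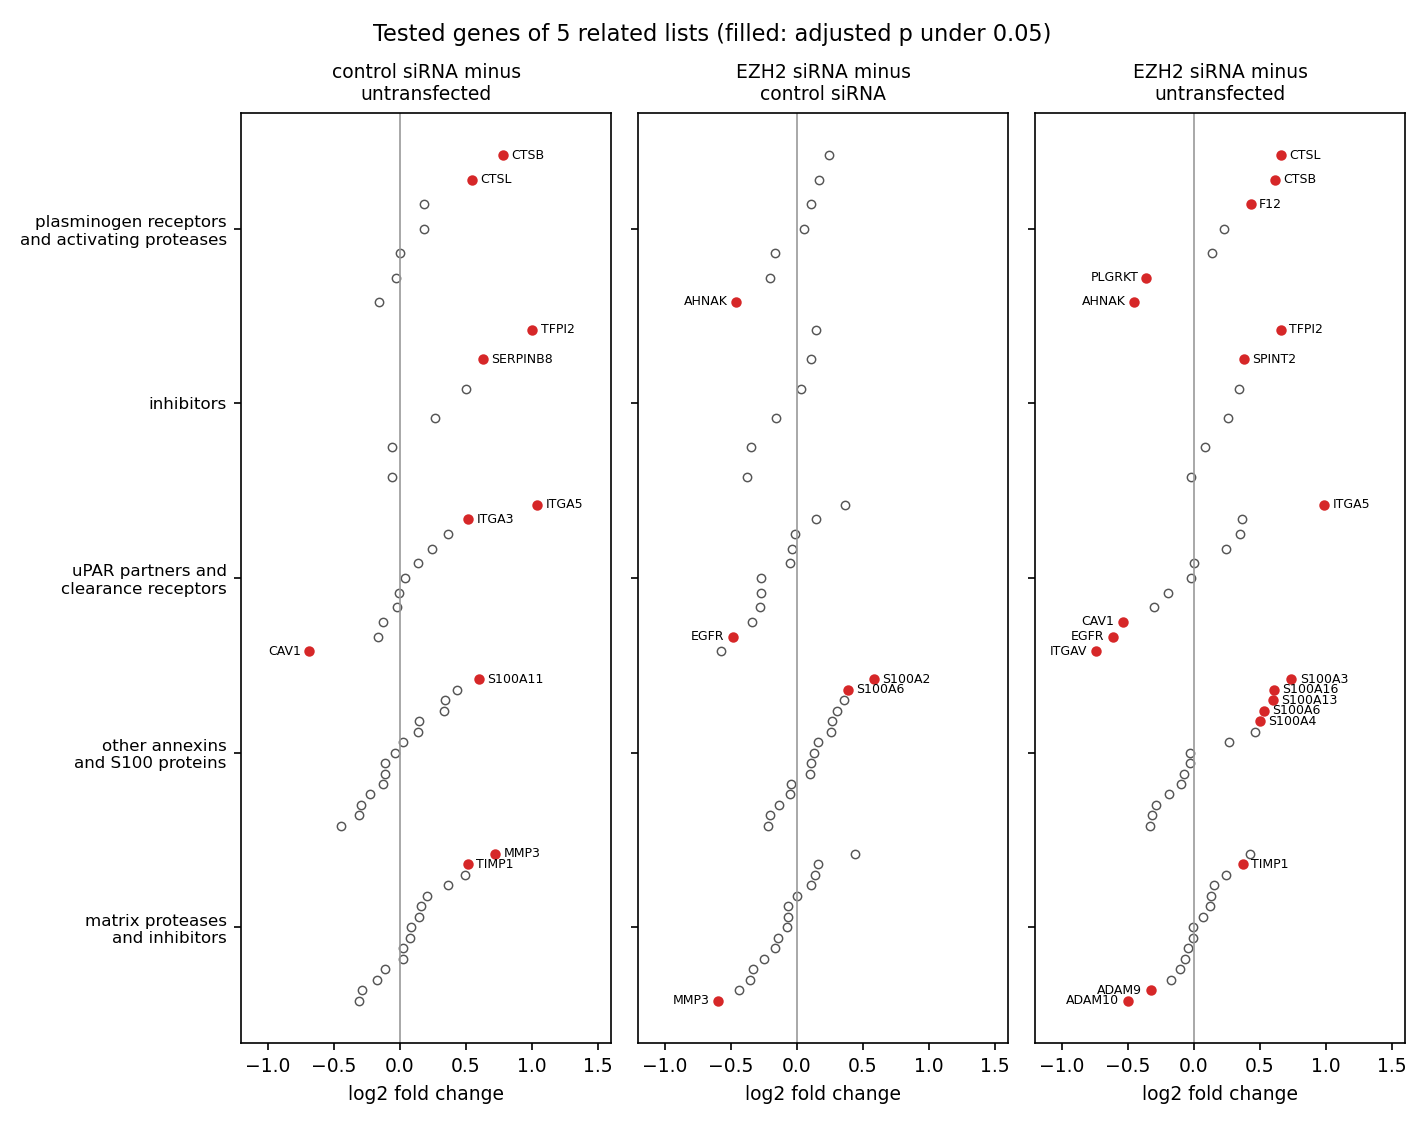
Log2 fold change (x axis) of every tested gene of 5 related gene lists (rows) in the 3 comparisons, by the gene's brightest probe. Filled points have a limma adjusted p under 0.05 and carry their gene's name. TFPI2 and ITGA5 lie farthest to the right with control siRNA, and 1, 0, 1, 2 and 1 genes of the lists, from top to bottom, are filled between the siRNAs.

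For each of the genes that rose, the genes most like it over the 12 arrays were taken by the root mean square difference of their log2 levels after centring each gene on its own mean, among the brightest probes of all genes. For PLAU, whose own root mean square from its mean was 0.426, these were DUSP1, a MAP kinase phosphatase, at 0.115, TFPI2 at 0.143 and MYLIP, a ubiquitin ligase for lipoprotein receptors, at 0.162. For PLAT (0.512) they were ATOSB at 0.176, TFPI2 at 0.186 and TNFRSF10B, a death receptor for TRAIL, at 0.200. TFPI2 was thus among the 3 nearest genes of both activators. DUSP1 had log2 fold changes of 1.02 with control siRNA and 0.59 with EZH2 siRNA against untransfected cells, and −0.43 between the siRNAs (limma adjusted p = 3.88e-05, 0.00444 and 0.074), beside 0.99, 0.54 and −0.44 for PLAU. For PLAUR (0.408) the nearest were PARP8 at 0.192, GOLT1A at 0.194 and the WNT ligand WNT7A at 0.211. For S100A10 (0.241) they were MED10, a Mediator subunit, at 0.0606, the endoplasmic reticulum chaperone HSPA5 at 0.0743 and CCN3 at 0.0848. These are descriptions over arrays that share groups and brightness. The genes were picked for likeness on these same arrays, so their like fold changes follow from the choice and are no separate support.

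**Figure D4:**
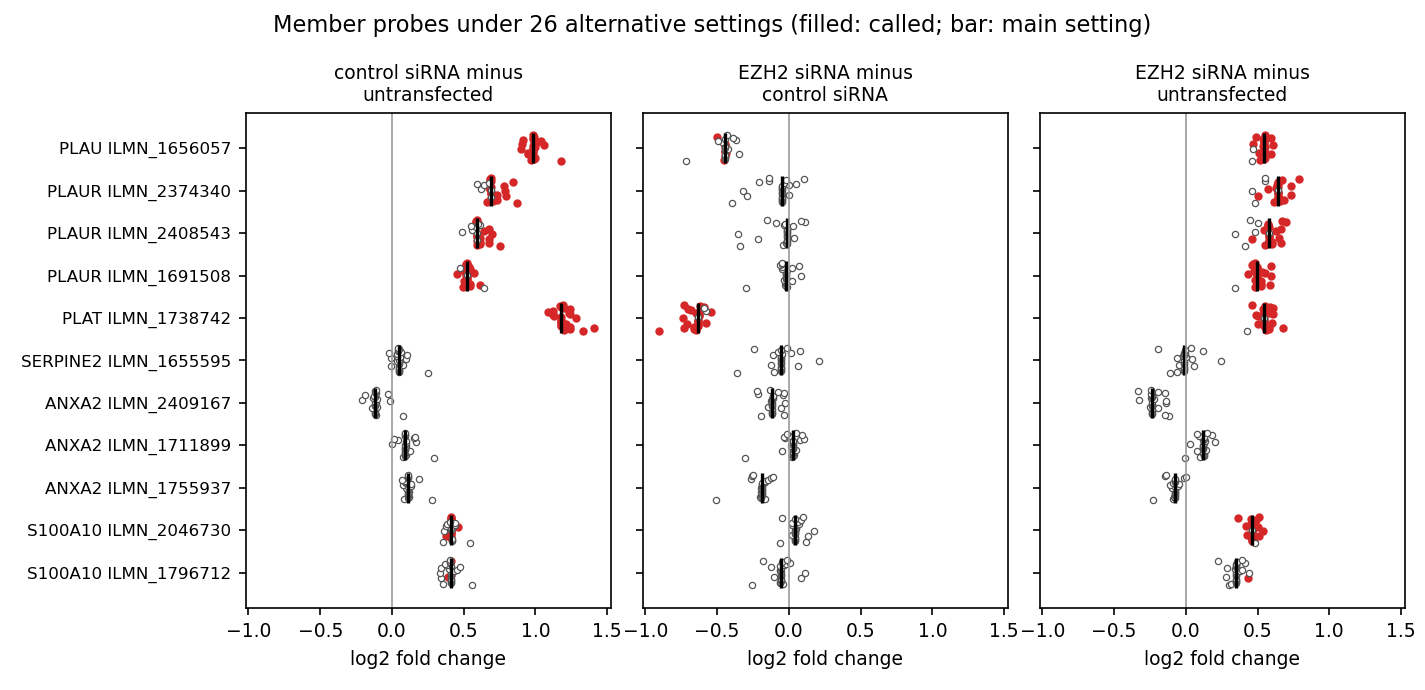
Log2 fold change of each of the 11 probes (rows) under 26 alternative settings (points, filled where called) in the 3 comparisons, with a vertical bar at the reported value. PLAU and PLAT with control siRNA are filled throughout (26 of 26). Between the siRNAs PLAT is filled in 23 and PLAU in 9.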

How the data were processed

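Biotin-labelled cRNA of 1 cell line was read on 12 Illumina bead arrays, 4 per group. The authors exported the deposited intensities, 1 for each probe on each array, with BeadStudio 3.2, per the submitters' processing notes; the sources used here do not give the background settings. The deposited log2 table matched log2 of the raw intensities after quantile normalisation to within 0.0001 and served as an alternative. The labels name 2 array types; the 48803 probes match the count they give for the Human-6.

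Intensities were corrected with normexp (offset 50), quantile-normalised and fitted over 12 arrays and 3 groups with lmFit and eBayes (limma 3.58.1, R 4.3.3), with Benjamini-Hochberg adjustment over 17369 probes. These lay above an array's background (the mode of its signal, with the spread below it mirrored above) at p under 0.01 on at least 4 arrays. Probes were named from the platform annotation (1 symbol for 28098, several for 13, none for 20692); a gene is represented by its brightest tested probe. The code was tested on simulated data. Figures used matplotlib 3.10.9.

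The genes and lists were chosen with earlier results of these data known. Named were all probes of the listed genes, EZH2, up to 3 called genes with the largest change per list and comparison, and 3 genes most alike to each of 4 members. Alternatives covered scaling, background, filter, brightness, weights, priors, fitting 2 groups alone, the threshold, a replicate block and leaving out each array. Whether replicate numbers pair the arrays was not settled: of 12 correlations between same-numbered arrays' deviations (−0.381 to 0.462), 5 were over 0.1. Differently numbered arrays were not compared. There were 0 unused sample columns.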

Additional observations from a re-analysis of the deposited data

Results flagged for a closer look

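Of 42 sets of 4 arrays examined (33 of them on the 11 probes), 1 held an array that stood apart. For the PLAUR probe ILMN_1691508, EZH2 siRNA array 1 read 7.86 and the nearest of the other 3 arrays 8.19, a gap of 0.884 of the group's range. Chance marks about 1 set in 20. Leaving this array out kept the probe's call against untransfected cells, and its call between the siRNAs was absent with and without it.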

How the results depend on the processing

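The fall of PLAU with EZH2 siRNA, the rise of S100A10 with control siRNA and part of the PLAUR calls depended on the processing; the rises of PLAU and PLAT with control siRNA were called in 26 of 26 alternatives. Between the siRNAs the 2 called probes became 1 under the 75th percentile scaling, no background correction, each array's own background with offset 16, the deposited log2 table, no filter, the brightness covariate and without the 3 arrays of mean signal under 250, 0 at an adjusted p under 0.01, and 0 to 2 with 1 array left out. With control siRNA against untransfected cells, 6 became 2 at that threshold and 2 to 7 with 1 array left out. With EZH2 siRNA against untransfected cells, 6 became 0 under the 75th percentile scaling, 2 without the 3 dim arrays, 3 at the stricter threshold and 4 to 6 with 1 array left out. A stricter threshold lowers such counts by construction; the other causes were not tested. Values are log2 fold changes from here on.

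The replicate number as a block left 1 called probe between the siRNAs, PLAU being lost (−0.443, adjusted p = 0.0619), and changed no other call on the 11 probes. Whether the numbers pair the arrays was not settled, and the reason for the loss was not tested.

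Signs turned for small changes, none of them called. Under the 75th percentile scaling ANXA2 ILMN_1711899 was −0.304 and S100A10 ILMN_2046730 −0.0649 between the siRNAs, ANXA2 ILMN_2409167 was 0.0742 with control siRNA and ANXA2 ILMN_1711899 −0.00831 with EZH2 siRNA against untransfected cells. With the brightness covariate PLAUR ILMN_1691508 was 0.0212, SERPINE2 0.0616, ANXA2 ILMN_1711899 −0.0446 and S100A10 ILMN_1796712 0.0879 between the siRNAs, and SERPINE2 was −0.00545 with control siRNA and 0.0562 with EZH2 siRNA against untransfected cells. Array weights gave PLAUR ILMN_2408543 0.0376 between the siRNAs. Without the 3 dim arrays PLAUR ILMN_1691508 was 0.0815, SERPINE2 0.207 and S100A10 ILMN_1796712 0.11 between the siRNAs, and SERPINE2 0.243 with EZH2 siRNA against untransfected cells. With 1 array left out, changes between the siRNAs ran from −0.205 to 0.107, −0.149 to 0.11 and −0.0589 to 0.0684 for PLAUR ILMN_2374340, ILMN_2408543 and ILMN_1691508, −0.242 to 0.0775 for SERPINE2, −0.0335 to 0.107 for ANXA2 ILMN_1711899, and −0.0512 to 0.1 and −0.183 to 0.0113 for S100A10 ILMN_2046730 and ILMN_1796712. SERPINE2 ran from −0.0218 to 0.103 with control siRNA and from −0.196 to 0.123 with EZH2 siRNA against untransfected cells. No called change of another named gene turned sign; of 1196 values, 188 lost the call.

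Over all tested probes, calls numbered 733 between the siRNAs (144 to 1278 over the other alternatives, 281 to 1289 with 1 array left out), 1127 with control siRNA (310 to 1868, 679 to 1193) and 2943 with EZH2 siRNA against untransfected cells (486 to 3392, 1924 to 3212). Between the siRNAs 318 rose and 415 fell, but 9 and 135 under the 75th percentile scaling, where the median of all probes was −0.104. In the other comparisons 673 and 454 became 252 and 58, and 1531 and 1412 became 178 and 308. The offset added before log2 shrinks the fold changes of dim probes such as those of EZH2, PLAT and MMP3.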
